A study of Rattus norvegicus with 8 samples.

Results

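Genes of the respiratory chain and the tricarboxylic acid (TCA) cycle were examined after forced activity of HIF1a in alveolar type II (ATII) cells of the rat, the lung epithelial cells that secrete surfactant. The set was a list of 38 nuclear-encoded genes, grouped as complex I to V, the electron carrier cytochrome c and the TCA cycle. A gene was taken as measured when a probe set of the array was annotated with its symbol alone. This held for 34 of the 38, out of 18166 genes measured in the same way. Ndufa10, Cox7a2 and Atp5f1c were matched only by probe sets shared with another symbol, and Fh by no probe set.

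Each of 4 male Sprague Dawley rats gave a well of ATII cells with the control adenovirus AdGFP, which carries green fluorescent protein, and a well with AdHIF1a, which carries a constitutively active mutant of HIF1a. Virus was present for 3 h at a multiplicity of infection of 20 in DMEM with 2% FBS. The cells were then plated on a gel made of 20% matrigel and 80% rat tail collagen. The medium held 5% rat serum, and RNA was taken after 24 h. The sources used here do not give the age of the rats. The wells were paired by rat, and each rat had its own extraction day, so rat and day cannot be told apart. RNA was taken from whole wells, in which fewer cells of a type and less RNA per cell cannot be told apart. All values are log2 array signals, all differences are AdHIF1a minus AdGFP within a rat, and ± after a difference is the standard error from limma with the rat as a block. A gene was called when its Benjamini-Hochberg adjusted p over the 18166 genes was under 0.05.

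Complexes I to IV of the inner mitochondrial membrane pass electrons from NADH and succinate to oxygen and build a proton gradient, which complex V uses to make ATP. The TCA cycle, in the mitochondrial matrix, oxidises acetyl-CoA and supplies that NADH and succinate. HIF1 is known for raising glycolytic genes and Pdk1, the kinase that keeps pyruvate out of the cycle, and for exchanging single subunits such as Cox4i2. ATII cells make surfactant lipid and are rich in mitochondria.

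Transcripts of the chain and the cycle showed small differences between the viruses. Of the 34 measured members, 1 was called lower (Sdhb, the iron-sulfur subunit of complex II), 0 were called higher, and 33 were not called by limma. Over all genes, 7.77% were called lower and 5.68% higher, or 13.4% in either direction. The 2.94% of members called lay below the share of genes at large. Members were bright, and among the 11345 genes at or above the median signal 16.4% were called lower, with 2 members (Sdhb and Sdhc). At an unadjusted p under 0.05, 7 members were lower, which is 20.6% of them against 15.4% of all genes, and 0 were higher against 12.2% of all genes. These unadjusted shares were not taken among the bright genes alone, so the part of signal level in them was not tested. The mean difference was below 0 for 30 of the 34 members (88.2%, against 50.8% of all genes). The median over the members was -0.17, a 1.13-fold lower signal, against -0.005 over all genes. Over the genes at or above the median signal it was -0.02. No member differed by 0.5 or more in size, as 12.6% of all genes did.

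The precision of the fit bounds these differences. Standard errors of the members ran from 0.08 for Sdhc to 0.15 for Ndufs3, with a median of 0.10 against 0.11 over all genes. The 95% intervals of 27 members included 0 and those of 7 lay below it. The lowest bound of any member was -0.80 (Suclg1, 1.74-fold lower) and the highest was 0.31 (Ndufs7, 1.24-fold higher), so all 34 intervals excluded a 2-fold change in either direction. Mean signals of the members lay between 6.54 (Uqcrb) and 12.03 (Atp5f1b), above the array lower quartiles of 3.55 to 3.68.

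**Figure D1:**
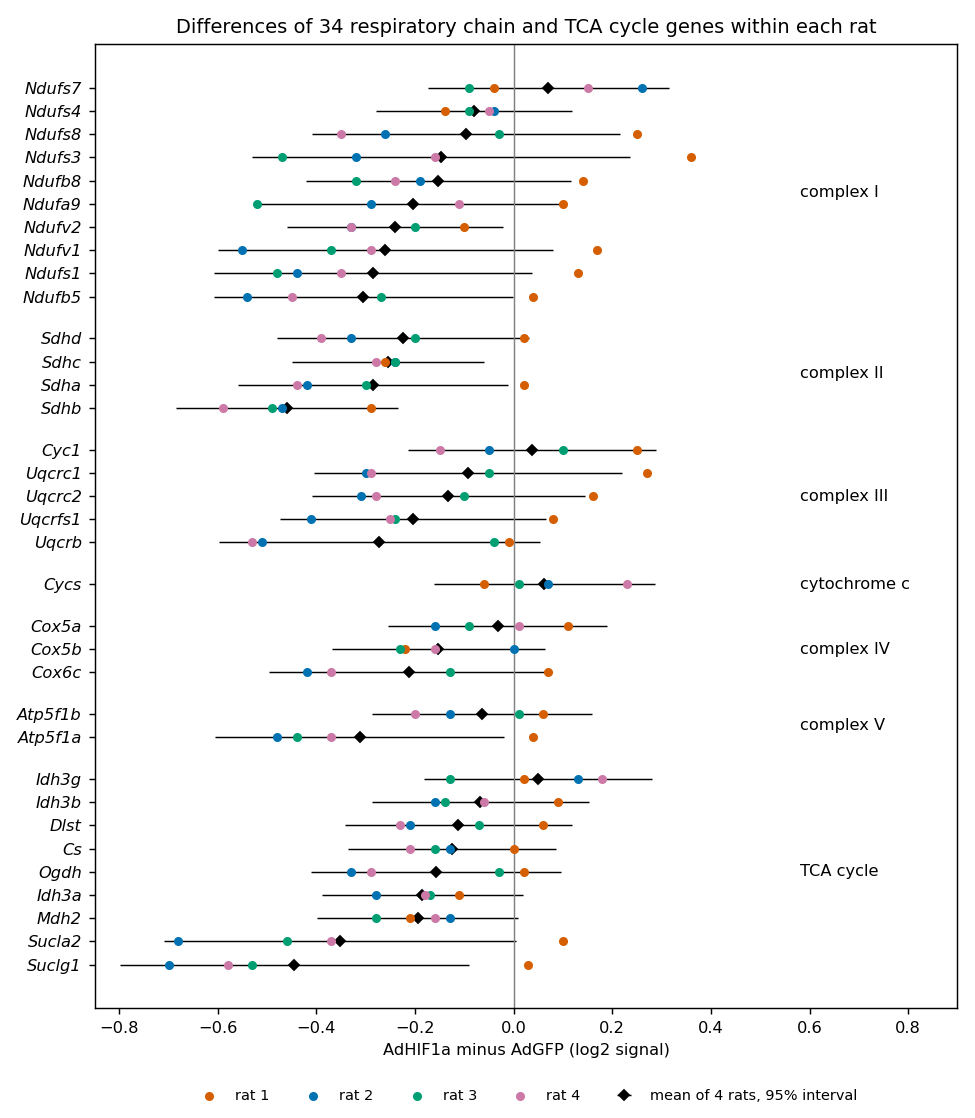
Each row is a member, grouped by complex, and the x axis is AdHIF1a minus AdGFP in log2 signal. Coloured points are the 4 rats, and black diamonds are the mean with its 95% interval. Most points of rats 2, 3 and 4 lie left of 0 and most of rat 1 lie right of it, and complex II is the group with the lowest median.

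The rats did not give the same picture. In rat 1, 23 members were higher in the AdHIF1a well, 10 lower and 1 equal, with a median difference of 0.04. In rats 2, 3 and 4, 30, 31 and 30 members were lower, with medians of -0.30, -0.19 and -0.27. Over all genes, the share lower was 49.1%, 49.5%, 54.3% and 50.4% in rats 1 to 4. Of the 4 AdGFP wells, that of rat 1 had the lowest signal for 24 of 34 members (70.6%, against 33.2% of all genes). Of the 4 AdHIF1a wells, that of rat 1 had the highest signal for 19 members (55.9%, against 30.8% of all genes). The median difference without rat 1 was -0.24, and it was -0.14 without rat 2 and -0.16 without rat 3 or rat 4.

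Marker genes of other cells were read beside these values, as the mean log2 signal of each list in a well. Markers of ATII cells had means of 10.11 to 10.57 in the AdGFP wells and 9.85 to 10.37 in the AdHIF1a wells, and went both ways. Of the 9 measured, 2 were called higher (Sftpa1 and Sftpb, surfactant proteins) and 3 lower (Napsa, Lamp3 and Lpcat1), with a median difference of -0.39 and a lowest of -1.52 for Napsa. Sftpc, the surfactant protein most particular to these cells, had means of 12.34 and 12.62 and was not called. Markers of alveolar type I cells, into which ATII cells can turn, had means of 9.22 to 9.82 in the AdGFP wells and 8.01 to 8.63 in the AdHIF1a wells. All 8 type I markers had a lower mean with AdHIF1a and 6 were called lower (75%). Over all genes, 7.77% were called lower and 5.68% higher. Macrophage markers lay at 6.77 to 7.41 and 6.36 to 7.15 (1 of 9 called lower), with the rat 1 well the lowest of each virus. Fibroblast markers had well means of 4.60 to 4.72 with AdGFP and 4.47 to 4.67 with AdHIF1a, endothelial markers 4.31 to 4.52 and 4.43 to 4.54, and lymphocyte markers 4.43 to 4.58 and 4.22 to 4.29. The 3 measured airway markers had means of 6.813 to 6.997 with AdGFP and 6.803 to 7.103 with AdHIF1a, of which the club cell gene Scgb1a1 was bright at 12.65 and 12.68. In none of these last 4 lists was a gene called. The part of these shifts in the members' differences was not tested.

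The promoters of the members were searched for short base motifs, and whether these act on the differences was not tested. HIF1 binds an ACGTG or GCGTG core. NRF1 and GABPA are activators known for driving nuclear genes of the respiratory chain. RefSeq promoter windows (GRCr8, 250 bases before to 50 after the gene start) were found for 30 of the 34 members. The windows below are those of Sdhb, the called member, and of Ndufs7 and Cycs, the members with the largest positive differences, neither of them called. Capitals mark ACGTG or GCGTG, the shorter NRF1 core GCATGCGC and the GABPA core CCGGAAG, on either strand.
Sdhb (chr5:158547684-158547983, plus strand): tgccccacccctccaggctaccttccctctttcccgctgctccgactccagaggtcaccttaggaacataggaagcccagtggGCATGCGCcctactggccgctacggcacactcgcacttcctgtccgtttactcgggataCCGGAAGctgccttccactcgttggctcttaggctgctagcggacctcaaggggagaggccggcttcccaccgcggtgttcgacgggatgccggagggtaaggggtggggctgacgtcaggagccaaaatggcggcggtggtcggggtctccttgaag
Ndufs7 (chr7:10110449-10110748, minus strand): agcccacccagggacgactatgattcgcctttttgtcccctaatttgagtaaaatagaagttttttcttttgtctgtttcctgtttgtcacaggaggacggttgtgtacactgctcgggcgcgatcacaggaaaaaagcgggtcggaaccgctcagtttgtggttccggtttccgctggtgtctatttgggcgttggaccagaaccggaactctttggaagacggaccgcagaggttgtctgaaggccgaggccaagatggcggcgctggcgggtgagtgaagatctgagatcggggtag
Cycs (chr4:80984718-80985017, minus strand): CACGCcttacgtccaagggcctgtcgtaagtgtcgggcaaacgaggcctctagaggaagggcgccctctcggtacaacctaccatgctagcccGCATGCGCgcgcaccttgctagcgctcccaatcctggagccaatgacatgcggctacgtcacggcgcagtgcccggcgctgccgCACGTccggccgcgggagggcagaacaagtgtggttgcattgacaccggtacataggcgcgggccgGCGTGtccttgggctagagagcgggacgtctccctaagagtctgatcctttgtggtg

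The Sdhb window held the shorter NRF1 core starting at -167 and the GABPA core at -108 from the gene start, and neither HIF core. The Cycs window held the shorter NRF1 core at -157 and the ACGTG core on the reverse strand at -73. It also held GCGTG at -7 and, on the reverse strand, at -250. The Ndufs7 window held none of these letters. ACGTG and GCGTG were counted on both strands, and ACGTG overlaps itself on the opposite strand in CACGTG. Either core was in 14 of the 30 member windows (46.7%), against 49.9% of the 16050 windows of tested genes and 41.6% of all 33469 windows. CCGGAAG was in 11 of 30 (36.7%) against 12.2% and 8.75%, and GCATGCGC in 3 of 30 (10%) against 3.64% and 2.47%. A longer form of the NRF1 core, which contains GCATGCGC, was in 0 of 30 member windows and in 1.22% of those of tested genes. The median GC content was 58.8% in the member windows and 57.0% in those of tested genes. The 14 members with a HIF core had a median difference of -0.18 (-0.31 to 0.06) and the 16 without one -0.15 (-0.46 to 0.07). The 11 with CCGGAAG had a median difference of -0.15 and the 19 without it -0.16. These matches are descriptions of the letters and not binding sites.

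Complex I, the entry point of electrons from NADH, had 10 measured members, of which 0 were called and 9 had a mean difference below 0. The group median was -0.18, and 0.12, -0.31, -0.30 and -0.27 in rats 1 to 4. It was -0.30 without rat 1 and -0.11 without rat 3. Ndufb5, an accessory subunit of the membrane arm, had the lowest mean difference of the group. Its signals, from rat 1 to rat 4, were 9.23, 9.52, 9.59 and 9.59 with AdGFP and 9.27, 8.98, 9.32 and 9.14 with AdHIF1a. The groups overlapped through the AdGFP well of rat 1, and the difference was -0.31 ± 0.12 (limma adjusted p = 0.179). Ndufs7, an iron-sulfur subunit close to the quinone site, had the only positive mean. Its signals were 10.90, 10.83, 10.80 and 10.86 with AdGFP and 10.86, 11.09, 10.71 and 11.01 with AdHIF1a. The AdHIF1a wells lay on both sides of the narrow AdGFP range, at 0.07 ± 0.10 (adjusted p = 0.714 in limma).

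Several other core subunits of complex I were higher in rat 1 and lower in the rest. Ndufs1, which carries iron-sulfur clusters of the NADH-oxidising arm, differed by 0.13 in rat 1 and by -0.44, -0.48 and -0.35 in rats 2 to 4. Ndufv1, which binds NADH and flavin, differed by 0.17 in rat 1 and by -0.55, -0.37 and -0.29 in the other rats. Ndufs3 had the widest range of the members, from 0.36 in rat 1 to -0.47 in rat 3. Ndufv2, the partner of Ndufv1, was lower in all 4 rats and was the complex I member whose groups did not overlap, with 9.92, 10.07, 10.04 and 10.15 in the AdGFP wells and 9.82, 9.74, 9.84 and 9.82 in the AdHIF1a wells. Its difference was -0.24 ± 0.09 (adjusted p = 0.149 in limma). Ndufs4, an accessory subunit, was lower in all 4 rats by 0.04 to 0.14, and Ndufs8, Ndufa9 and Ndufb8 had means of -0.10, -0.21 and -0.15.

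Complex II, or succinate dehydrogenase, belongs to both the chain and the TCA cycle. All 4 of its subunits had a mean difference below 0, 1 was called, and the group median was -0.27, the lowest of the 6 groups. In rat 1 the median of these subunits was -0.12, and in rats 2 to 4 it was -0.38, -0.27 and -0.42. Sdhb signals, from rat 1 to rat 4, were 10.22, 10.31, 10.19 and 10.26 with AdGFP and 9.93, 9.84, 9.70 and 9.67 with AdHIF1a. Every AdHIF1a well lay below every AdGFP well. The mean went from 10.25 ± 0.05 to 9.79 ± 0.12 (SD, n = 4), a 1.38-fold lower signal (95% interval 1.18 to 1.61, limma adjusted p = 0.0286). Omitting rat 2, 3 or 4 ended the call in limma, at -0.46, -0.45 and -0.42 with adjusted p = 0.136, 0.104 and 0.137. The share of all genes called lower also fell in these fits, from 7.77% to 1.35%, 3.3% and 1.66%, and was 6.78% without rat 1.

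The membrane anchor subunits and the flavoprotein of complex II were not called. Sdhc, an anchor, had signals of 10.87, 10.77, 10.77 and 10.85 in the AdGFP wells and 10.61, 10.53, 10.53 and 10.57 in the AdHIF1a wells. The groups did not overlap, and the 4 rats differed by -0.26, -0.24, -0.24 and -0.28, the most even result of the set. The difference of -0.26 ± 0.08 had an adjusted p of 0.0965 in limma, the closest to the threshold among members not called. It passed in an unblocked fit (adjusted p = 0.0453 in limma) and with rat as a random effect (0.0350). It also passed among genes at or above the median signal (0.0420) and with a trended and robust prior (0.0158). Under the other alternatives Sdhc was not called. Its limma adjusted p was 0.159 with quantile normalization, 0.131 with median centring, 0.0711 with array weights and 0.148 to 0.296 with a rat omitted. Sdha, the catalytic flavoprotein, differed by 0.02, -0.42, -0.30 and -0.44 in rats 1 to 4, and Sdhd, the other anchor, by 0.02, -0.33, -0.20 and -0.39.

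Across the whole set, 4 members had groups that did not overlap, all with AdHIF1a lower, which is 11.8% of them against 12.2% of all genes. These were Ndufv2, Sdhb, Sdhc and Mdh2. Members lower in all 4 rats numbered 7, or 20.6% against 20.4% of all genes, and 0 were higher in all 4 rats against 17.9%.

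**Figure D2:**
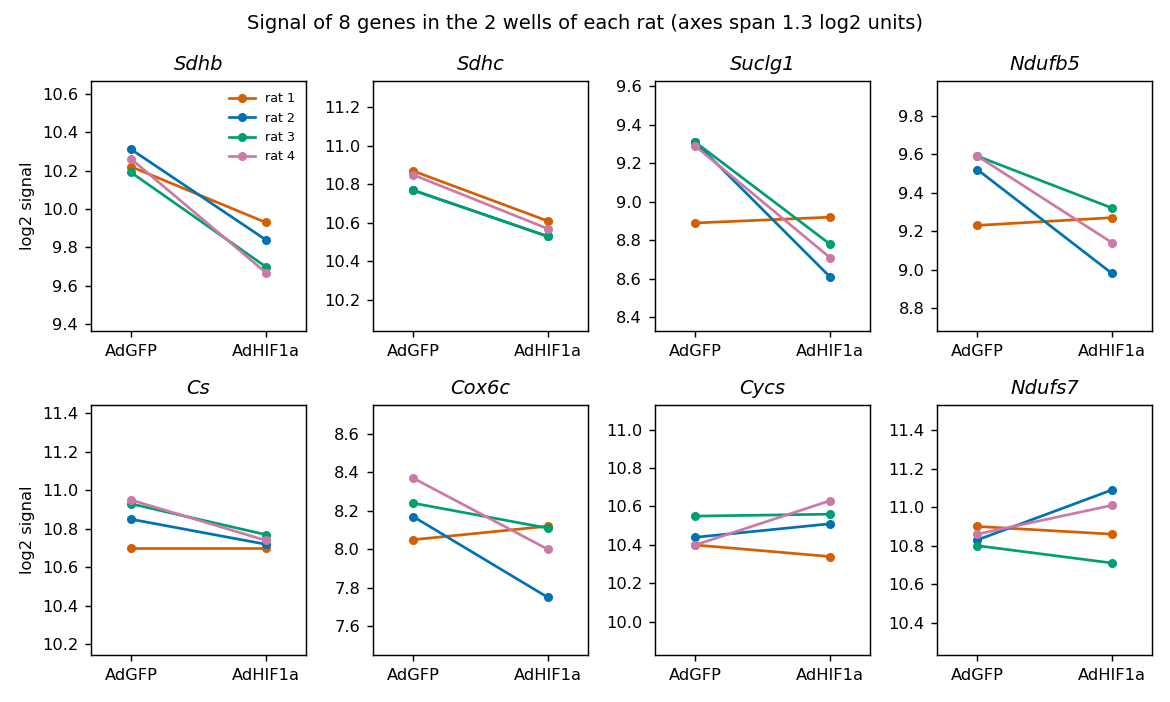
Each panel shows the log2 signal of a gene in the AdGFP and AdHIF1a wells, with a line for each of the 4 rats. Every line of Sdhb and Sdhc falls (the lines of rats 2 and 3 coincide for Sdhc), while in Suclg1, Ndufb5 and Cs the AdGFP well of rat 1 starts below the other 3.

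Complex III, which passes electrons from ubiquinol to cytochrome c, had 5 measured members, 0 called and 4 with a mean below 0. The median was -0.13, and 0.16, -0.31, -0.05 and -0.28 in rats 1 to 4. It was -0.23 without rat 1, -0.07 without rat 2 and -0.08 without rat 4. Uqcrb, a small subunit at the ubiquinone site, had signals of 6.31, 7.17, 6.51 and 6.71 with AdGFP and 6.30, 6.66, 6.47 and 6.18 with AdHIF1a. The groups overlapped, and the difference of -0.27 ± 0.13 (adjusted p = 0.252 in limma) came from rats 2 and 4 (-0.51 and -0.53), with -0.01 and -0.04 in rats 1 and 3. Cyc1, which encodes cytochrome c1, had signals of 10.45, 10.76, 10.88 and 10.88 with AdGFP and 10.70, 10.71, 10.98 and 10.73 with AdHIF1a. It differed by 0.04 ± 0.10 (adjusted p = 0.860 in limma), with 2 rats higher and 2 lower. The core subunits Uqcrc1 and Uqcrc2 differed by -0.09 and -0.13 and the Rieske iron-sulfur protein gene Uqcrfs1 by -0.21.

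Cytochrome c itself, the mobile carrier between complexes III and IV, is encoded by Cycs. Its signals were 10.40, 10.44, 10.55 and 10.40 in the AdGFP wells and 10.34, 10.51, 10.56 and 10.63 in the AdHIF1a wells. The groups overlapped, at 0.06 ± 0.09 (adjusted p = 0.722 in limma). A second Cycs probe set differed by -0.08, so the probe sets disagreed in sign.

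Complex IV, the oxidase that reduces oxygen, had 3 measured nuclear members, all with a mean below 0 and 0 called (median -0.15). Cox6c signals were 8.05, 8.17, 8.24 and 8.37 with AdGFP and 8.12, 7.75, 8.11 and 8.00 with AdHIF1a, at -0.21 ± 0.11 (adjusted p = 0.303 in limma). The groups overlapped, and rat 1 was higher by 0.07. Cox5a differed by -0.03 ± 0.09, and its other 2 probe sets by -0.03 and -0.01. Cox5b was lower in rats 1, 3 and 4 and equal in rat 2. The mitochondrial genome encodes the catalytic core of this complex, and COX1, COX2 and COX3 were measured. COX1 and COX3 differed by 0.04 ± 0.10 and 0.03 ± 0.09, each at -0.18 in rat 1 and 0.08 to 0.14 in the others. COX2 differed by -0.06 ± 0.15, with -0.56 in rat 1. None of the 3 was called in limma, and 0 of them had an unadjusted p under 0.05.

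Against these levels stood the exchangeable subunits of the same complex. Cox4i2, the hypoxia-responsive form of a complex IV subunit, rose from 5.36 to 5.60 in the AdGFP wells to 7.65 to 8.53 in the AdHIF1a wells, or 6.01-fold (adjusted p = 0.00109 in limma). Ndufa4l2, a relative of a complex IV subunit, rose 2.40-fold. Their counterparts Cox4i1 and Ndufa4 both had a mean signal of 10.3 over the 8 arrays, against 6.8 for Cox4i2 and 5.5 for Ndufa4l2. Neither Cox4i1 nor Ndufa4 was called. All 9 measured genes of a HIF response list (Pdk1, Ldha, Pgk1, Slc2a1, Egln3, Ndufa4l2, Cox4i2, Lonp1 and Higd1a) were called higher. The share of all genes called higher was 5.68%. The list had a median difference of 1.26, and medians of 1.51, 1.27, 1.14 and 1.55 in rats 1 to 4. The response of that list in rat 1 thus lay within the range of the other rats.

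Complex V, the ATP synthase, had 2 measured members. Atp5f1a, the alpha subunit of its catalytic head, had signals of 10.52, 10.61, 10.71 and 10.67 with AdGFP and 10.56, 10.13, 10.27 and 10.30 with AdHIF1a. Rat 1 differed by 0.04 and the others by -0.48, -0.44 and -0.37, for a mean of -0.31 ± 0.12 (adjusted p = 0.157 in limma) and groups that overlapped only through rat 1. Atp5f1b, the catalytic beta subunit of the same head, differed by -0.07 ± 0.09 (adjusted p = 0.707 in limma).

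The TCA cycle had 9 measured members, of which 0 were called and 8 had a mean below 0 (median -0.16, and 0.02, -0.21, -0.16 and -0.21 in rats 1 to 4). Cs, the citrate synthase that opens the cycle, had signals of 10.70, 10.85, 10.93 and 10.95 with AdGFP and 10.70, 10.72, 10.77 and 10.74 with AdHIF1a. The wells of rat 1 were equal and those of the other rats lower with AdHIF1a, at -0.13 ± 0.08 (adjusted p = 0.415 in limma). The subunits of isocitrate dehydrogenase, the NAD-dependent step, were split. Idh3a was lower in all 4 rats (-0.19 ± 0.08), while Idh3b differed by -0.07 ± 0.09 and Idh3g by 0.05 ± 0.09, and none was called. Idh3g signals were 10.68, 10.68, 10.83 and 10.69 with AdGFP and 10.70, 10.81, 10.70 and 10.87 with AdHIF1a, with overlapping groups.

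Succinyl-CoA ligase, the step just before complex II, had the largest differences among these 9 members. Suclg1, its alpha subunit, had signals of 8.89, 9.31, 9.31 and 9.29 in the AdGFP wells and 8.92, 8.61, 8.78 and 8.71 in the AdHIF1a wells. Rats 2, 3 and 4 differed by -0.70, -0.53 and -0.58 and rat 1 by 0.03. The groups overlapped only through rat 1. The mean of -0.45 ± 0.14 was not called (adjusted p = 0.107 in limma). It passed once rat 1 was omitted (-0.60, adjusted p = 0.0308 in limma), in an unblocked fit (0.0387), with rat as a random effect (0.0334) and with array weights (0.0343). Under the other alternatives Suclg1 was not called. Its limma adjusted p was 0.0914 with quantile normalization, 0.129 with median centring and 0.342, 0.273 and 0.325 without rat 2, 3 or 4. Sucla2, the ATP-forming beta subunit, was also higher in rat 1 and lower in the others (0.10, -0.68, -0.46 and -0.37). Of the remaining enzymes, Mdh2, the malate dehydrogenase of the matrix, was lower in all 4 rats at -0.20 ± 0.08 without overlap, and Ogdh and Dlst, of the 2-oxoglutarate dehydrogenase complex, differed by -0.16 and -0.11.

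The remaining genes of the same machinery were read from further lists. Of 44 measured other nuclear subunits of complexes I, III, IV and V, 0 were called higher and 2 lower (4.55%, against 7.77% of all genes). Their median was -0.12, and 36 means were below 0, against 50.8% of all genes. The 2 called were complex I accessory subunits, Ndufb2 at -0.66 ± 0.09 and Ndufb4 at -0.56 ± 0.13 (adjusted p = 0.0113 and 0.0474 in limma). Ndufb2 signals were 8.40, 7.88, 8.03 and 8.11 with AdGFP and 7.69, 7.07, 7.52 and 7.49 with AdHIF1a, so every AdHIF1a well was below every AdGFP well. Its call was lost without rat 2 or rat 4, and that of Ndufb4 when any 1 rat was omitted or the arrays were centred on the median (0.0579). With a trended and robust prior 5 of these subunits were called lower. Of 3 other TCA enzymes measured, Idh2, the NADP-dependent isocitrate dehydrogenase of the matrix, was lower at -0.51 ± 0.10 (adjusted p = 0.0269 in limma), and Dld and Suclg2 differed by -0.20 and -0.29. The call of Idh2 was lost without rat 2, 3 or 4. Of 38 assembly factors measured, 2 were called lower (5.26%, against 7.77% of all genes) and 0 higher, with a median of -0.11. The 2 called were Tmem70, which acts in assembly of ATP synthase (-0.50 ± 0.09), and Nubpl, which delivers iron-sulfur clusters to complex I (-0.47 ± 0.10). Both calls were lost without rat 2, 3 or 4, and that of Nubpl also in the unblocked fit (0.0679), with rat as a random effect (0.0509) and after median centring (0.0593). The largest difference of that list in size was -0.58 for Coa3, a complex IV assembly factor (adjusted p = 0.0513 in limma). Across the alternatives without a rat left out, 0 to 5 assembly factors were called lower and 0 or 1 higher.

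**Figure D3:**
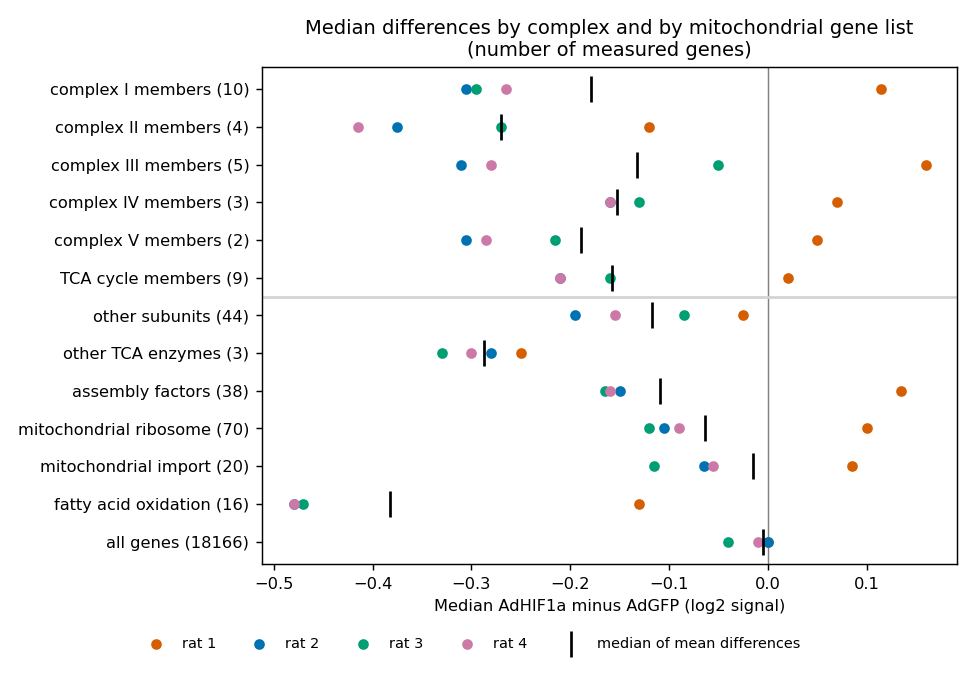
Rows are the 6 groups of members and further gene lists, with the number of measured genes in brackets, and the x axis is the median AdHIF1a minus AdGFP in log2 signal. Coloured points are the 4 rats and black bars the median of the mean differences. In 5 of the 6 member groups rat 1 lies above 0 and the other rats below it, and fatty acid oxidation lies lowest, at -0.38. Rat 2 is hidden under rat 4 for complex IV, the TCA cycle and fatty acid oxidation.

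Fatty acid oxidation, a matrix pathway that feeds the same chain, was set beside the members. Of its 16 measured genes, 6 were called lower (37.5%, against 7.77% of all genes) and 0 higher. The median was -0.38, and -0.13, -0.48, -0.47 and -0.48 in rats 1 to 4. Cpt1a, which commits fatty acids to entry into mitochondria, fell by 0.94 ± 0.10 and kept its call without each rat in turn (adjusted p = 0.00653 in limma). The other 5 were Acadl, Hadh, Etfb, Slc25a20 and Decr1, at -0.45 to -0.80, and each call was lost without rat 2, 3 or 4. That of Decr1 was also lost with quantile normalization (adjusted p = 0.0574 in limma). With rat as a random effect, array weights or a trended and robust prior, 10 of the 16 were called lower. Whether this list differed from the members was not tested.

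**Figure D4:**
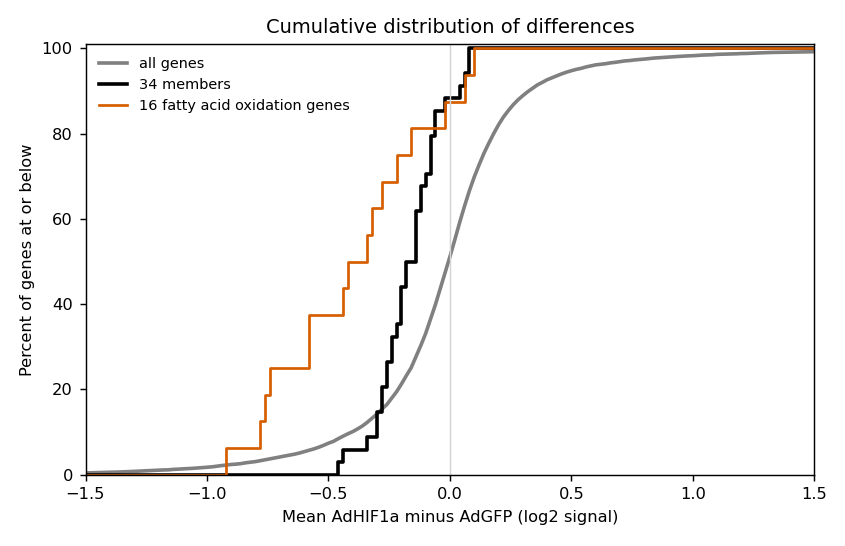
The x axis is the mean AdHIF1a minus AdGFP in log2 signal and the y axis the percent of genes at or below it, for all 18166 genes (grey), the 34 members (black) and 16 fatty acid oxidation genes (orange). The members rise from 0 to 100% between -0.46 and 0.07, in a band left of the middle of all genes. The axis leaves out the outer ends of the curve of all genes.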

How the data were processed

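RNA of 8 wells, 4 per virus and 1 of each from every rat, was hybridised to 8 arrays. The deposited values are log2 signals for 36685 probe sets, made by the authors with Affymetrix Expression Console per the submitters' processing notes. The log2 scale was read from their range (1.42 to 13.57). Its algorithm and version, and a genome build, were not given in the sources used here. Array medians were 5.00 to 5.20 and upper quartiles 7.62 to 7.68. Probe sets with 1 gene symbol in the platform annotation (18511) gave 18166 genes, each by its probe set of highest mean. Another 575 had several symbols and 17599 had none, and these named no gene.

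All probe sets were fitted with limma 3.58.1 (R 4.3.3), with rat as a fixed block, and p-values were adjusted over the genes. The series' design text pairs wells by extraction date, which is also the rat, and deviations from group means correlated at 0.177 to 0.265 within rats and at -0.22 to 0.077 between rats. At most 1.95% of values were equal between any pair of arrays. The same limma model was tested on simulated data for the named genes alone, and not for the fit on all probe sets. No detection call was used, and the number of arrays limits the precision. Members and lists were chosen with earlier results of these data known, so no test was made of a list as a whole. Values in every well are given for called members, for Cycs, Sdhb and Cs, and for the member nearest the threshold. They are also given for the largest negative difference in each group and the largest positive one where a group had any. Of other lists, up to 4 called genes and the largest difference are named. Ndufv2 and the remaining members, list genes outside these rules, and the motifs GCATGCGC and CCGGAAG were chosen after their values were seen. Alternatives were no or a random rat block, quantile normalization, centring on the median or upper quartile, filters on dim genes and array weights. Others were a trended and robust prior, the mean of a gene's probe sets, adjusted p under 0.01 and omission of each rat. A variance prior from named genes alone was added after seeing the data.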

Additional observations from a re-analysis of the deposited data

Results flagged for a closer look

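A gap test was run on the 4 wells of each virus for all 34 members, 68 groups in all, and 6 had a well far from the other 3. The nominal rate of about 1 in 20 is for independent groups, whereas these genes were read on the same wells. The test was not run over all genes, so the count has no share to stand beside it. In 4 of the 6 the well was the AdGFP well of rat 1, on the low side. For Suclg1 it read 8.89 against 9.29 to 9.31, with a gap of 0.952 of the whole range. For Sucla2 it read 9.12 against 9.42 to 9.45 (0.909), for Ndufs1 8.96 against 9.35 to 9.39 (0.907) and for Idh3b 11.28 against 11.46 to 11.48 (0.900). The others were Cyc1 in the AdHIF1a well of rat 3, at 10.98 against 10.70 to 10.73 (0.893), and Idh3g in the AdGFP well of rat 3, at 10.83 against 10.68 to 10.69 (0.933).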

How the results depend on the processing

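Under every alternative run, the members' median and the medians of complexes I to V and the TCA cycle moved by less than the SD of the 4 rat medians. That SD was 0.15 for all members, 0.20 for complex I and 0.22 for complex III, beside medians of -0.17, -0.18 and -0.13. A move as large as the complex I or III median would pass this rule, so it cannot show that they are stable. The members' median ran from -0.14 without rat 2 to -0.25 with median centring. The number of members called higher was 0 under every alternative. The number called lower was 1 in the paired fit. It was 3 with no replicate block (Sdhb, Sdhc and Suclg1) and 3 with the replicate as a random block. A trended and robust prior also gave 3 (Sdhb, Sdhc and Mdh2), the filter at the median 2, array weights 2, and an adjusted p under 0.01 gave 0. Leaving out a rat gave 0 to 2, with 2 without rat 1 (Sdhb and Suclg1) and 0 without rat 2, 3 or 4. All genes called were 2443, with 656 at an adjusted p under 0.01 and 3674 with the prior from named genes. They were 2006, 561, 1117 and 625 without rats 1 to 4. A call lost without rat 2, 3 or 4 was thus lost in a fit with far fewer calls over all genes. Centring on the array median moved the median of all genes to -0.09 and that of the members to -0.25, with -0.22 for complex III, -0.24 for complex IV and -0.24 for the TCA cycle. The 4 members with a positive mean (Ndufs7, Cyc1, Cycs and Idh3g) then fell below 0, so their sign depends on the scaling. Cyc1 also turned without rat 1 (-0.03) and with array weights (-0.01), and Cycs with the mean of its probe sets (-0.01).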

Other observations

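Genes that feed the TCA cycle or carry its metabolites went both ways. Of 10 measured, Me2, the mitochondrial malic enzyme that turns malate into pyruvate, rose from 8.36 ± 0.25 to 9.49 ± 0.10 (SD, n = 4), or 2.19-fold (adjusted p = 0.00816 in limma), and was called without each rat in turn. Its signals were 8.04, 8.62, 8.32 and 8.46 with AdGFP and 9.61, 9.47, 9.36 and 9.52 with AdHIF1a, without overlap. Glud1, glutamate dehydrogenase, which supplies 2-oxoglutarate, fell by 0.59 ± 0.11 (adjusted p = 0.0232 in limma), and its call was lost without rat 2, 3 or 4. The median of the list was -0.03. Its calls were 1 higher and 1 lower of 10, beside 5.68% and 7.77% of all genes.

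Genes of the mitochondrial ribosome, which translates the subunits encoded in mitochondrial DNA, had a median of -0.06 over 70 measured. Of these, 1 was called higher and 0 lower, against 5.68% and 7.77% of all genes. The higher gene was Mrpl38, at 0.42 ± 0.08 (adjusted p = 0.0279 in limma), a call lost when any 1 rat was omitted, in the unblocked fit (0.0522) and after median centring (0.150). The largest difference in size was -0.53 for Mrpl23, which was not called. In the unblocked fit 5 genes of this list were called lower, and 0 to 6 over the alternatives. At an unadjusted p under 0.05, 10 of the 70 were lower and 6 higher, against 15.4% and 12.2% of all genes. Protein import genes had a median of -0.02 over 20 measured, with 0 called by limma. At an unadjusted p under 0.05, 2 of the 20 were higher and 2 lower, against 12.2% and 15.4% of all genes. The largest there was 0.35 for Tomm70, the import receptor (adjusted p = 0.0654 in limma). The medians of these lists were 0.10 and 0.09 in rat 1 and between -0.06 and -0.12 in rats 2 to 4.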
